A study of Mus musculus with 2 samples.

Results

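The Iroquois genes Irx1, Irx2, Irx3, Irx4, Irx5 and Irx6 encode homeodomain transcription factors of the TALE class, whose homeodomain carries a loop extension of extra amino acids. They lie in 2 clusters in the mouse genome, Irx1, Irx2 and Irx4 on chromosome 13 and Irx3, Irx5 and Irx6 on chromosome 8, separated by long stretches with few coding genes. In the heart Irx4 marks the ventricles, Irx3 acts in the fast conduction system, and Irx5 helps to set the gradient of repolarisation across the ventricular wall through potassium channel genes. Sap130 is a subunit of the Sin3 corepressor complex, which carries histone deacetylases to chromatin. The positions at which Sap130 was enriched at these 6 genes are described here.

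Sap130 was profiled by chromatin immunoprecipitation and sequencing in hearts of C57BL/6 embryos at stage E12.5. There was 1 library from chromatin precipitated with a rabbit anti-Sap130 antibody (2 µg) and 1 library of input DNA that received no antibody. The number of hearts behind each library is not stated in the labels, and a list of peak summits offers no check of the tissue through marker expression. With 1 ChIP library there was no replicate, so no p-value is given and every count below describes this library alone.

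The members were chosen by position. A summit, the highest base of a peak, was counted for an Iroquois gene when it lay inside the gene or within 50000 bp of it. This gave 14 of the 14881 summits on nuclear chromosomes. Each summit carries the authors' score, the −log10 of its p or q value. Such a score rises with the number of reads and with the enrichment. Over all summits the score had a median of 33.3 and quartiles of 13.9 and 65.2. It is used here only to rank summits within the list, and the depth of both libraries is unknown. All 14 summits lay close to the genes, the farthest being 1835 bp outside one. Beyond the limit of 50000 bp the next were 58724 bp and 61615 bp from Irx4 and 99155 bp from Irx5, with scores of 31.3, 62.3 and 17.2. The wide reach therefore added no distant summit.

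Transcript starts with their upstream sequence were taken from a table drawn from RefSeq (GRCm38.p6), which was used for 3 of the 6 genes, Irx2, Irx3 and Irx4. Starts of Irx1, Irx5 and Irx6 were not analysed here. The 250 bases before each listed start are shown because 2 of these stretches hold a Sap130 summit. The stretch before the start of Crnde is shown because this long noncoding RNA gene adjoins Irx5 and holds the highest-scoring of the 14 summits. Each runs 5′ to 3′ on the strand of its gene, and capitals mark CpG dinucleotides. Irx2 is chr13:72628570-72628819 on the plus strand, Irx3 is chr8:91801655-91801904 on the minus strand, Irx4 is chr13:73260247-73260496 on the plus strand and Crnde is chr8:92356121-92356370 on the minus strand.
Irx2: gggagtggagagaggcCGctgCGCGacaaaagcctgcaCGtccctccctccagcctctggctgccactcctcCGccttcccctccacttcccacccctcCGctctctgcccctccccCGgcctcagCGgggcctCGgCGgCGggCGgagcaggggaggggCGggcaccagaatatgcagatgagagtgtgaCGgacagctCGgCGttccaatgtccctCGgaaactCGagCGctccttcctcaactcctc
Irx3: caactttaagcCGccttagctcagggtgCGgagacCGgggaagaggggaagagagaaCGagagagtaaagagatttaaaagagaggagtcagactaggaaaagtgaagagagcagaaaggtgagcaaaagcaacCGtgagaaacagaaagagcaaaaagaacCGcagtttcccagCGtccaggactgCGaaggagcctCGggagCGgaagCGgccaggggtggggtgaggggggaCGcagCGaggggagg
Irx4: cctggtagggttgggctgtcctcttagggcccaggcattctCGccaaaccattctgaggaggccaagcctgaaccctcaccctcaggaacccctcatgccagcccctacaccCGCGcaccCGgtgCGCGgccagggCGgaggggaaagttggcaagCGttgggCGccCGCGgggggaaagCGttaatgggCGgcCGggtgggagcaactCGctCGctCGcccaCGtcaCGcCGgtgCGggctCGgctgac
Crnde: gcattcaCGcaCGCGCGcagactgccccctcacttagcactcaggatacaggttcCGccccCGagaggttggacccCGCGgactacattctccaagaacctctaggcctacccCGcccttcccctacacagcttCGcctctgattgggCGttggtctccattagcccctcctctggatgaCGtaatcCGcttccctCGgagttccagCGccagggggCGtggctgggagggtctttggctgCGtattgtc

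Counted from the 5′ end, base 9 of the Irx2 run was a summit and the single Irx4 summit lay at base 190 of its run. The summit in the Irx2 run was the weakest of 4 at that gene, with a score of 3.16. It was also 14 bp upstream of the start of Gm20554, a long noncoding RNA gene. The Irx3 and Crnde runs held no summit. Of the 32851 listed promoter windows, which span 250 bases before to 50 after a start, 4.97% held a summit, against those of 2 of the 3 Iroquois genes. The windows belong to 27025 genes, of which 17492 were protein-coding. Windows of protein-coding genes alone were not taken as a background.

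Summits were found at 5 of the 6 Iroquois genes, and Irx6 had none. The corresponding share of the 21779 protein-coding genes with a summit inside or within 50000 bp was 71.4%. That share counts summits of nearby genes, whereas no Iroquois gene had another protein-coding gene within 50000 bp. Among the 2467 genes with that degree of isolation, 42.3% had a summit in reach. A narrower measure gave 4 of 6, Irx1, Irx3, Irx4 and Irx5, with a summit within 1000 bp of either boundary of the gene. The background was 48.4% of all protein-coding genes and 34.6% of the isolated ones. Irx2 failed this measure because its RefSeq span begins 4390 bp before its listed start. Measured from the listed starts, all 3 genes that have one had a summit within 1000 bp, against 52.2% of the 17492 protein-coding genes with a listed start.

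**Figure D1:**
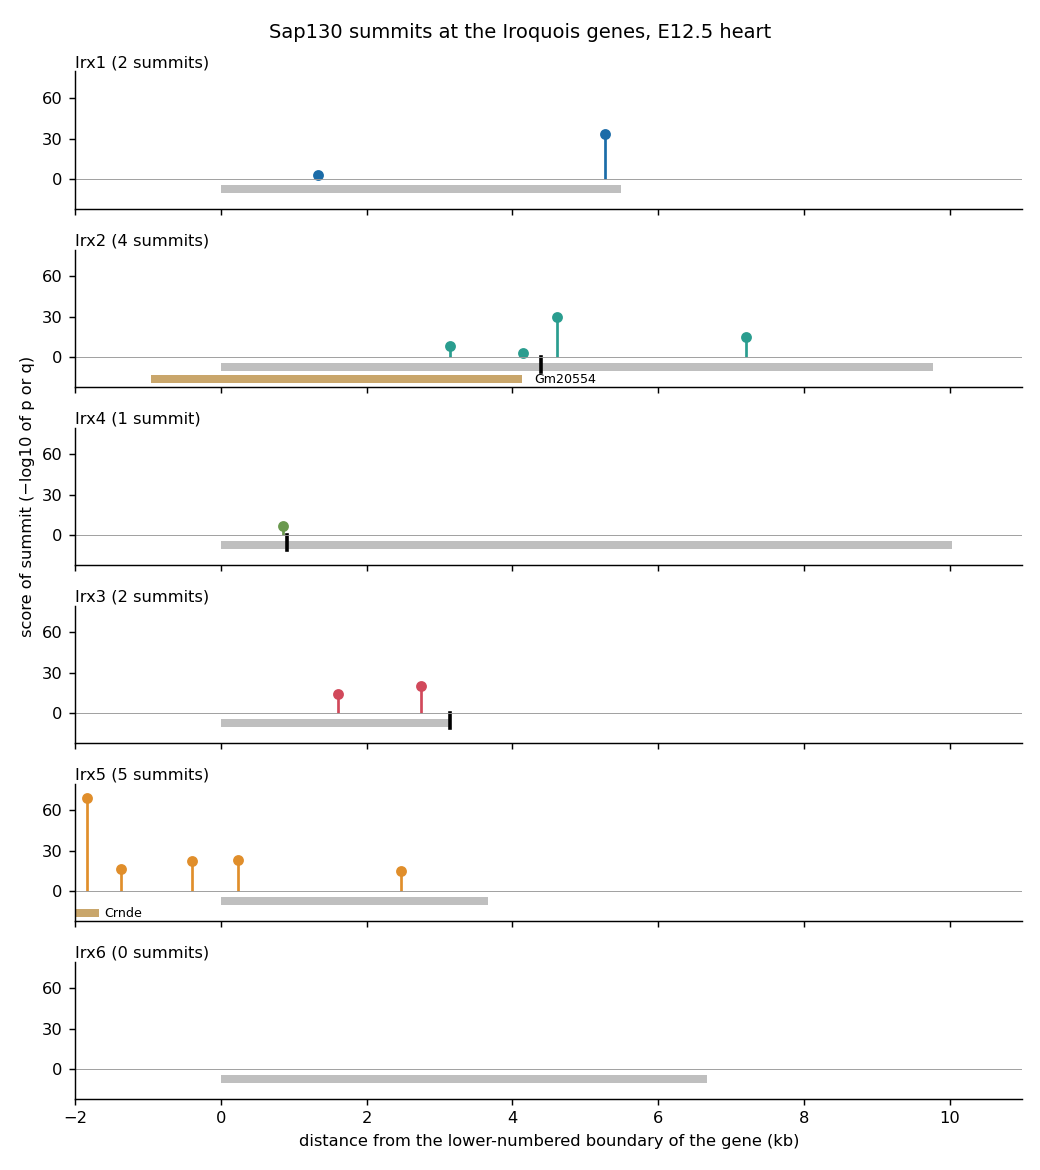
Sap130 summits at each Iroquois gene. Points give the score of each summit (y axis, −log10 of p or q) against its distance in kb from the lower-numbered boundary of the gene (x axis). Grey bars are the genes, black ticks the listed transcript starts of Irx2, Irx4 and Irx3, and brown bars the long noncoding RNA genes Gm20554 and, at the left edge, Crnde. Irx5 has 5 summits, Irx2 has 4, and Irx6 has none.

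Irx1, a member expressed in the ventricular septum, lies at chromosome 13, 71958232 to 71963723. It had 2 summits, both inside the gene. The stronger, at 71963504, scored 33.3 and was 219 bp inside the upper boundary. It ranked 7439 of 14881, level with the median of all summits. The weaker, at 71959559, scored 3.01 and ranked 14833, among the lowest in the list. The strand of Irx1 was not in the tables used here, so neither boundary is called the start.

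Irx2, the middle gene of this cluster, lies at chromosome 13, 72624430 to 72634196, with its listed start at 72628820 on the plus strand. It had 4 summits, all inside the RefSeq span. The highest, at 72629039, scored 29.7 and lay 219 bp downstream of the start. Another at 72628578 scored 3.16 and lay 242 bp upstream, and one at 72627575 scored 7.92 and lay 1245 bp upstream. The last, at 72631636, scored 14.7 and lay 2816 bp downstream. The scores were therefore highest just after the start and lower on both sides of it.

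The upstream side of Irx2 is shared with Gm20554, a long noncoding RNA gene on the opposite strand whose start lies 256 bp from that of Irx2. The weak summit at 72628578 was 14 bp upstream of the Gm20554 start, and that at 72627575 was 989 bp downstream of it, inside Gm20554. The strongest Irx2 summit was also within 1000 bp, 475 bp upstream of the Gm20554 start. These 3 summits cannot be given to one of the genes by position.

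Irx4, the ventricular member, lies at chromosome 13, 73259589 to 73269622, with its listed start at 73260497 on the plus strand. Its single summit, at 73260436, scored 7.03 and ranked 13540 of 14881. This was the lowest best score of the 5 genes. The summit lay 61 bp upstream of the start, whereas the strongest Irx2 and Irx3 summits were downstream. Of 9128 protein-coding genes with a summit within 1000 bp of a listed start, the strongest was downstream in 82.6% and upstream in 17.4%, with a median position 179 bp downstream and quartiles of 104 and 244 bp. The 219 bp of Irx2 fell within those quartiles, the 391 bp of Irx3 lay beyond them, and Irx4 belonged to the upstream minority.

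Irx3, the conduction system member, lies at chromosome 8, 91798511 to 91801654, on the minus strand with its start at 91801654. It had 2 summits, both inside the gene. The one at 91801263, which was 391 bp downstream of the start, scored 20.2. The one at 91800117, 1537 bp downstream, scored 13.96. Both were below the median of all summits. Irx3os, a long noncoding RNA gene on the opposite strand that starts 1682 bp from the Irx3 start, had no summit inside it or within 1000 bp of its ends.

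Irx5, the repolarisation gradient member, lies at chromosome 8, 92357796 to 92361456, and had 5 summits, the most of the 6 genes. Of these 2 were inside the gene, at 92358026 with a score of 23.0, 230 bp inside the lower boundary, and at 92360264 with a score of 15.2, 1192 bp inside the upper boundary. The other 3 lay below the lower boundary. That at 92357402 scored 22.2 and was 394 bp outside, that at 92356425 scored 16.4 and was 1371 bp outside, and that at 92355961 scored 69.2 and was 1835 bp outside. Apart from the last, the scores at Irx5 spanned a narrow range from 15.2 to 23.0.

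The summit of score 69.2 ranked 3357 of 14881 and was the only one of the 14 above the upper quartile of all summits. It lay inside Crnde, 159 bp downstream of the Crnde start at 92356120. The summit of score 16.4 was 305 bp upstream of that start. Crnde is on the minus strand, and its start is 1676 bp from the lower boundary of Irx5. By position the strongest summit counted for Irx5 is thus a summit near the start of Crnde, and the strongest of the 3 with no other gene within 1000 bp scored 23.0.

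Irx6, the third gene of its cluster, lies at chromosome 8, 92674289 to 92680956. The nearest summit was 146544 bp away, at 92827500 with a score of 12.6, just inside Mmp2, the gene of a matrix metalloproteinase. A missing summit says that no peak in this list lay there, since peaks below the authors' threshold are not listed.

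**Figure D2:**
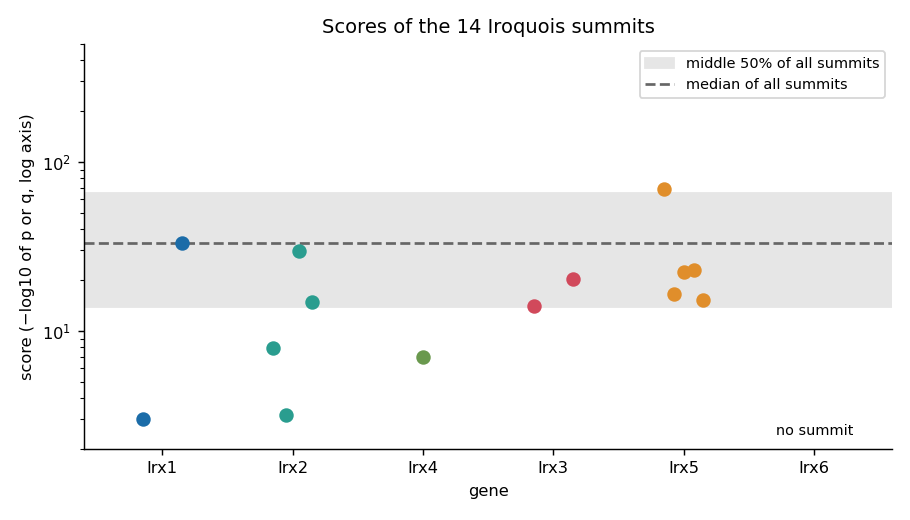
Scores of the 14 summits by gene (y axis, −log10 of p or q on a log axis), set against the median (dashed line, 33.3) and the middle 50% (grey band, 13.9 to 65.2) of all 14881 summits. Only the Irx5 summit of 69.2, which lies in Crnde, is above the band, and 4 summits of Irx1, Irx2 and Irx4 are below it.

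Most of the Iroquois summits scored below the median of all summits. Their median score was 15.8, with 3.01 the lowest and 69.2 the highest, against 33.3 over all summits. Only 2 of 14 were at or above the median of all summits. There were 4 below the lower quartile, 8 between it and the median, 1 between the median and the upper quartile and 1 above that. For the 4 genes with a summit within 1000 bp of a boundary, the best score there had a median of 21.6, against 49.3 for the 10532 protein-coding genes with such a summit. The gap was smaller against isolated genes. The strongest summit in reach had a median score of 29.7 over the 5 Iroquois genes. It was 31.6 over the 1044 genes with a summit in reach and no protein-coding neighbour within 50000 bp, with quartiles of 16.0 and 57.5. Over all 15545 protein-coding genes with a summit in reach it was 70.2. Summits near noncoding genes were kept in all 3 sets. Among the Iroquois values, the 69.2 of Irx5 lies in Crnde and the 29.7 of Irx2 is also in reach of Gm20554. The 9 summits within 1000 bp of no other gene had a median of 15.2.

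Each cluster had 7 summits, with the lower scores in that of Irx1, Irx2 and Irx4. On chromosome 13 the median score was 7.92, the lowest 3.01 and the highest 33.3, and all 7 summits were inside the genes. On chromosome 8 the median was 20.2, the lowest 13.96 and the highest 69.2, and 4 were inside the genes. The ranges overlap, and with 1 library the difference was not tested.

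Several Iroquois genes carried more than 1 summit. Counted inside the gene or within 2000 bp, Irx5 had 5, Irx2 had 4, Irx1 and Irx3 had 2 each, Irx4 had 1 and Irx6 had 0. With 2 or more were 4 of the 6, against 17.6% of protein-coding genes. With 4 or more were Irx2 and Irx5, against 1.09%. These genes are short, the 5 with a summit being 3144 to 10034 bp long, whereas the 238 protein-coding genes with 4 or more summits had a median length of 69052 bp. Among the 7887 protein-coding genes no longer than Irx4, 11.3% had 2 or more and 0.571% had 4 or more. When summits within 500 bp of each other were merged, Irx2 had 3 and Irx5 had 4, and 0.872% of protein-coding genes had 4 or more. When summits within 1000 bp of another gene of any type were left out, Irx2 kept 1 and Irx5 kept 3, so that no Iroquois gene had 4, against 0.377% of protein-coding genes with 4 or more.

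**Figure D3:**
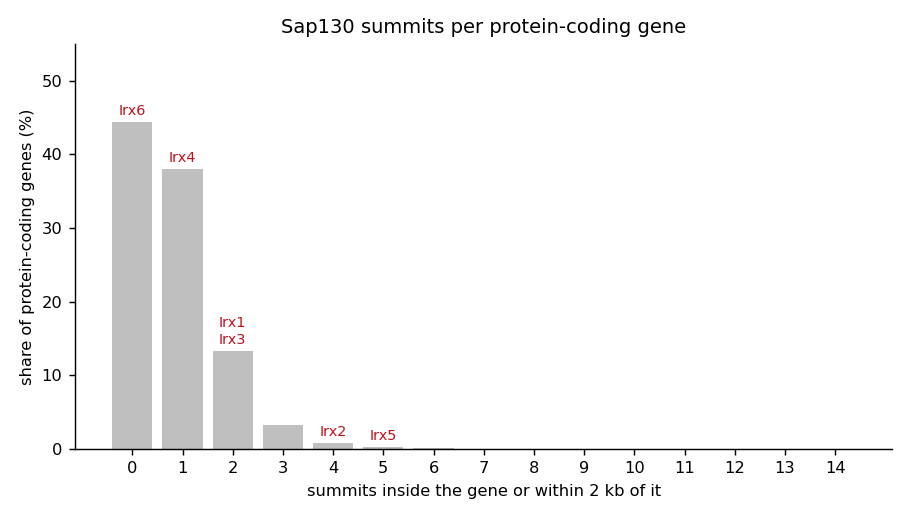
Share of the 21779 protein-coding genes (y axis, %) by their number of Sap130 summits inside the gene or within 2 kb (x axis). Names in red mark where each Iroquois gene falls. Irx6 is with the 44.4% that have none and Irx5 with the 0.193% that have 5.

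The summits were closely spaced. The nearest other summit lay within 5000 bp for 13 of the 14, against 41.4% of all summits. The median distance to it was 1074.5 bp, against 11750 bp over all summits. The exception was the Irx4 summit, whose nearest neighbour was 67910 bp away, at the Ndufs6 gene. The closest pairs were those 461 bp apart at the Irx2 start and 464 bp apart at the Crnde start. The 13 summits belong to the 4 genes with 2 or more summits, all of them short. Their spacing therefore largely restates the counts per gene and is not a separate result.

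Between the genes the clusters were almost free of summits. The Irx1, Irx2 and Irx4 cluster spans 1311391 bp, of which the 3 genes take up 1.93%, and all 7 summits in that span were inside the genes. No summit lay in the 664071 bp between the upper summit of Irx1 and the first of Irx2, nor in the 628800 bp between Irx2 and Irx4. Of the 14861 gaps between neighbouring summits on a chromosome, 5.75% and 6.20% were at least as long. Such shares are of the number of gaps, not of the length they cover, and other gene-poor regions were not taken as a background. The Irx3, Irx5 and Irx6 cluster spans 882446 bp, of which its 3 genes take up 1.53%. It held 8 summits, 7 of them counted for Irx3 and Irx5 and 1 in intergenic DNA at 92460611, with a score of 17.2. The gap between Irx3 and the first summit counted for Irx5 was 554698 bp, and 7.03% of all gaps were at least as long. The 366889 bp gap that contains Irx6 had 10.3% of gaps at least as long.

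**Figure D4:**
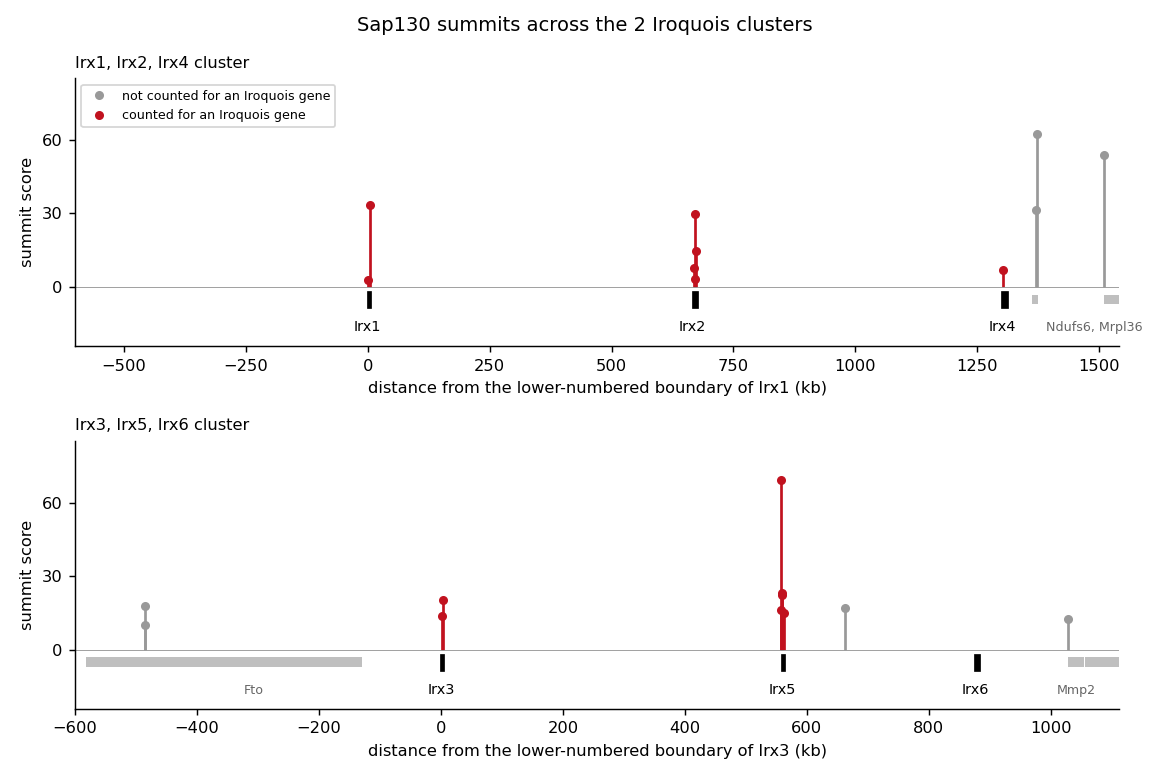
Sap130 summits across both clusters, with summit score (y axis, −log10 of p or q) against distance in kb from the lower-numbered boundary of Irx1 or Irx3 (x axis). Black bars are Iroquois genes and grey bars other protein-coding genes, of which Fto (drawn here joined to the adjacent Rpgrip1l), Mmp2, Ndufs6 and Mrpl36 are named. Red summits, counted for an Iroquois gene, stand in the genes or, at Irx5, also up to 1835 bp outside, where the tallest lies in Crnde. Apart from these, the long spans between the genes hold 1 summit, at 662.1 kb in the lower panel.

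Fto, an RNA demethylase gene whose introns are known to hold enhancers that contact Irx3, ends 130078 bp below Irx3. It held 1 summit, of score 18.0, 298 bp inside its lower boundary. No summit lay in the remaining 354768 bp of Fto. Of the 12 annotated genes of other kinds within 50000 bp of an Iroquois gene, 9 were long noncoding RNA genes and none was protein-coding. Gm20554 and Crnde were the only ones with a summit within 1000 bp of an end. No share over all noncoding genes is set beside this count, so it cannot be read as low or high. Within 1000000 bp there were 36 other protein-coding genes, 15 with a summit at an end, against 48.4% of all protein-coding genes. On the chromosome 13 side these were 10 of 18, among them Ndufs6, of respiratory complex I, with 31.3, and Mrpl36, of the mitochondrial ribosome, with 62.3. On the chromosome 8 side they were 5 of 18, among them Rbl2, a retinoblastoma relative, with 84.2, while the 9 carboxylesterase genes of the Ces1 and Ces5 groups beyond Irx6 had none. The best scores at those neighbours had a median of 51.2 on chromosome 13 and 18.0 on chromosome 8. Not in these counts were Aktip, Slc12a7 and Exoc3, with summits of 72.7, 62.9 and 64.2 inside the gene. These lay near a listed start but more than 1000 bp from either end. Neighbours that share a summit were each counted. Fto and Rpgrip1l share that of 18.0, and Trip13 and Brd9 share one of 147.2. Irx4, with 7.03, scored lower than its neighbours Ndufs6 and Mrpl36 in this library, and the reason was not tested.

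The listed promoters of Irx2, Irx3 and Irx4 were rich in CpG. In the 300-base windows the ratio of observed to expected CpG was 0.723 for Irx2, 0.748 for Irx3 and 0.828 for Irx4. The median over all 32851 windows, of coding and noncoding genes, was 0.384. The ratio was 0.752 for Crnde and 0.285 for Irx3os, the one without a summit nearby. Across all windows, the share with a summit within 1000 bp of the start was 1.12% for ratios below 0.2, 7.28% from 0.2 to 0.4, 35.3% from 0.4 to 0.6, 75.1% from 0.6 to 0.8, 91.0% from 0.8 to 1.0 and 94.4% above that. Irx2, Irx3 and Crnde fell in the bin of 75.1% and Irx4 in that of 91.0%. Most promoters of such CpG content therefore had a summit in this library.

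**Figure D5:**
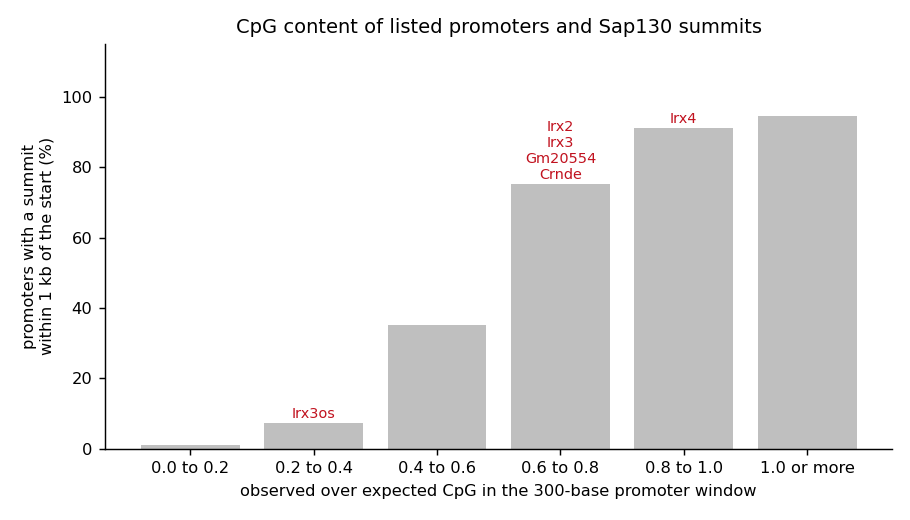
Share of listed promoters with a Sap130 summit within 1 kb of the transcript start (y axis, %), by observed over expected CpG in the 300-base window around the start (x axis). Names in red mark the bins of the Iroquois promoters and the adjoining long noncoding RNA genes. Irx2, Irx3, Gm20554 and Crnde are in a bin where 75.1% have a summit, and Irx3os is in one where 7.28% do.

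Base composition differed among the 3 promoters. G and C made up 69.0% of the Irx2 window, 70.7% of the Irx4 window and 56.0% of the Irx3 window. The median over all windows, of coding and noncoding genes, was 52.7%. The run shown for Irx3 was 73.6% A and G on its own strand, a share that 0.228% of all promoters reached. Short motifs were searched on both strands of the 300-base windows. GGGCGG, the box bound by Sp and Klf factors, was present in 35.7% of all windows. It occurred at 109 and 93 bp before the Irx2 start and at 117 and 63 bp before the Irx4 start, counted to its first base, and not in the Irx3 window. The second Irx4 match takes up bases 188 to 193 of the run shown above, and the Irx4 summit, of score 7.03, is base 190 of that run. In the Irx2 run the summit, base 9, lay away from the matches at bases 142 to 147 and 158 to 163. How closely a summit marks a bound base was not tested. CCAAT, bound by NF-Y and present in 37.4% of windows, occurred 43 bp before the Irx2 start. The other letters searched, CACGTG (7.15% of windows), TGACGTCA (1.79%), CCGGAAG (8.86%), GCATGCGC (2.71%), TATAAA (13.6%) and ACANNTGT, the site of Iroquois factors themselves (7.38%), were in none of the 3 windows. A match is a match of letters and was not tested as a binding site.

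The other TALE homeobox genes, which encode the Meis, Pbx, Pknox and Tgif factors and Mkx, had a higher median score at their ends than the Iroquois genes. A summit was within 1000 bp of a boundary in 9 of 12, against 4 of 6 Iroquois genes and the 48.4% of all genes, and the best scores there had a median of 37.1, against 21.6. The highest was 108 at Tgif2, which encodes a corepressor of TGF-beta signalling, from a summit also in reach of a noncoding gene. Mkx, the tendon factor nearest in kind to the Iroquois genes, had none, its nearest summit being 169563 bp away. With 2 or more summits inside or within 2000 bp were 6 of the 12, against the same 17.6% of all genes. Meis2 had 9 and Meis1 had 6, and these genes are 206274 and 139224 bp long.

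Genes of factors that act beside Iroquois factors in the heart also had low scores and several summits. The genes with a summit at an end were 8 of the 12, against 48.4% of all protein-coding genes. They were Nkx2-5, Tbx20, Tbx2, Gata6, Hand1, Hand2, Hey1 and Hey2 but not Tbx3, Tbx5, Mef2c or Gata4. Away from the ends, Tbx5 and Mef2c had 3 summits each and Gata4 had 1, inside or within 2000 bp. Tbx3 had none there. The best scores at an end had a median of 20.3, from 6.55 at Hand1 to 28.7 at Hey1. At Hand1, Hand2, Hey1, Tbx2 and Gata6 the best summit was also in reach of another gene. At Nkx2-5, Tbx20 and Hey2 it was not. With 2 or more summits inside or within 2000 bp were 10 of the 12, against 17.6% of all protein-coding genes. Of these 10, Mef2c, Tbx5, Tbx20 and Gata6 are longer than the median protein-coding gene of 17217 bp, and the others are shorter. The count was not set against genes of like length. Counted inside or within 2000 bp, Hand2, a gene of 3535 bp, had 6 and Nkx2-5, of 6325 bp, had 3. Low scores and several summits inside or within 2000 bp of a short gene were therefore also seen outside the Iroquois genes. Summits shared with other genes were not left out of these counts.

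Of 9 heart genes known to respond to Iroquois factors, 2 had a summit at an end, against 48.4% of all protein-coding genes: Kcnd2, the potassium channel gene repressed by Irx5, with 11.8, and Gja1, of connexin 43, with 13.9. Gja5, Nppa, Bmp10, Myl7, Myh6, Myh7 and Kcnip2 had none there. Among signals upstream of Iroquois genes the count was 2 of 8, beside the same 48.4%: Ctnnb1, of beta-catenin, with 64.7 and Fgf8 with 7.67. Shh, Bmp4 and Ets1 had 1 summit each and Rarb had 2, all away from the ends, and Wnt3a and Cyp26c1 had none inside or within 2000 bp.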

How the data were processed

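Data came from 1 Sap130 ChIP library and 1 input library of E12.5 mouse hearts. Bowtie 1.1.2, MACS2 2.1.0.20140616 and the build GRCm38 (mm10) are named in the submitters' processing notes. Settings, duplicate handling and the peak threshold: not given in the sources used here. Deposited by the authors were 14886 entries, each of 1 base and read here as a summit, with a −log10 score. The values do not show whether the score is of p or of q. The 14881 summits on nuclear chromosomes were used.

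Genes came from RefSeq GRCm38.p6, with 49997 annotated. Left out were 394 that were mitochondrial, unplaced or, outside Y, began in the first 3 Mb of a chromosome, which were taken as scaffolds or patches. Of the rest, 21779 were protein-coding. Starts and strand came from a RefSeq promoter table, which lists 17492 of these genes. Coordinates are 1-based. Protein sequences were not used here.

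All results are counts and ranks within 1 library, with no test. The counting was tested on simulated data with planted summits. Named genes were all 6 members, genes in reach of their summits, Mkx and the highest of each related list, to which other list members and neighbours were added after their values were seen. One planned list member is not reported here. The members, lists and settings were chosen with earlier results of these data known. Alternatives covered windows, reach, the score, merging and the gene background. Python 3.11.15, numpy 2.4.6, pandas 2.3.3 and matplotlib 3.10.9 were used.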

Additional observations from a re-analysis of the deposited data

How the results depend on the processing

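The 14 summits and the 5 genes with one were the same in number with a reach of 10000 or 25000 bp, and 12 summits were left after merging those within 500 bp. A reach of 100000 bp gave 17 summits at the same number of genes and moved their median score from 15.8 to 17.2. The number of Iroquois genes with a summit at an end was 3, 4 and 5 with windows of 500, 2500 and 10000 bp, and the share of all protein-coding genes was 42.3%, 52.6% and 58.9%, in place of 48.4%. From listed starts alone these were 3 genes and 52.2%. The share of protein-coding genes with a summit in reach was 60.1%, 65.4% and 77.8% with 10000, 25000 and 100000 bp, in place of 71.4%. Keeping only summits at or above the median score left 2 of the 14 summits, at 2 Iroquois genes, 1 of which had a summit at an end, and shares of all genes of 31.6% at an end and 56.6% in reach. Settings chosen after seeing the data were a background of genes with no protein-coding neighbour within 50000 bp, which gave 34.6% at an end and 42.3% in reach, and those for genes with 4 or more summits, of which 2 became 1 after merging (0.872% of all protein-coding genes, in place of 1.09%) and 0 without summits within 1000 bp of another gene of any type (0.377%).

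No paired analysis was possible because there was 1 ChIP library. The depth of the libraries is unknown, so weak peaks that more reads would bring over the threshold cannot be judged.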
